A study of Rattus norvegicus with 12 samples.

Results

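The interferon regulatory factors (IRFs) are a family of transcription factors that bind DNA through a shared amino-terminal domain and govern the transcription of interferons and of interferon-stimulated genes. Irf1, Irf2, Irf3, Irf5, Irf7, Irf8 and Irf9 were taken by gene symbol, which gave 7 of the 18483 genes measured by RNA-seq. All 7 passed the filter on low counts, which kept 13967 genes.

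The cells were neonatal rat ventricular myocytes (NRVMs), isolated from Sprague-Dawley neonates and enriched by density centrifugation, which were all transfected with an siRNA and kept in a serum-free medium with insulin, transferrin and selenium. The control groups siNeg and siNeg PE received a negative control siRNA, and the groups siSlc39a2 and siSlc39a2 PE received an siRNA against Slc39a2, which encodes a zinc importer. The PE groups were treated with phenylephrine (PE), an alpha-adrenergic agonist that induces cardiomyocyte hypertrophy, for 36 h per the labels, while the culture methods of the study give a longer time. There were 3 independent biological replicates in each of the 4 groups, 12 samples in all, and 1 siRNA duplex against Slc39a2 is listed in the study's methods, so that an effect of the target and an effect of that duplex cannot be told apart. Groups without PE are called basal here.

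The 12 libraries held 24065539 to 28603854 expected counts each. The targeted gene itself was low. Slc39a2 had 50, 50 and 59 counts in siNeg and 21, 11 and 2 counts in siSlc39a2, a log2 fold change of -2.35 with a standard error (SE) of 0.457 and an adjusted p of 0.00098. With PE, it had 95, 198 and 182 counts after siNeg and 31, 25 and 38 counts after siSlc39a2. All 12 cardiomyocyte markers were detected in each group, with a summed level of 26400 to 39400 FPKM (fragments per kilobase of transcript, scaled to library size). Markers of other cell types were also present, at 845 to 3820 FPKM for 10 fibroblast genes, 37.8 to 156 FPKM for the measured macrophage genes, 4.32 to 7.34 FPKM for 9 endothelial genes and 0.57 to 1.92 FPKM for 4 lymphocyte genes. In bulk samples such as these, fewer cells of a type and less RNA per cell cannot be told apart.

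In resting cells, IRF3 and IRF7 wait in the cytoplasm until the kinases TBK1 and IKKε phosphorylate them downstream of nucleic acid sensors, after which they enter the nucleus and switch on the gene of interferon beta. Secreted interferon then signals through JAK kinases to STAT proteins, which join IRF9 in the complex ISGF3 and bind the interferon-stimulated response element (ISRE). Irf7 is itself a well known target of ISGF3, and Irf1 is a well known target of STAT dimers, which bind the gamma-activated sequence (GAS), and of NF-κB, which binds κB sites.

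The promoters of the members show which of these elements lie close to the genes described below. Sequences were taken from RefSeq on the build GRCr8, whereas the expression files were made on Rnor_6.0. Of the 7 members, 6 had a promoter in the table, and Irf2 did not. The 250 bases before each start were searched on both strands for the core of the ISRE (GAAANNGAAA), for the GAS (TTCNNNGAA) and for the κB motif. Among all 33469 promoters of the same length, 3.41% held the ISRE core, 7.67% the GAS and 3.54% the κB motif. Matched letters are in capitals below, with 10 bases on either side and written along the strand of the gene. The Irf7 stretch lies at chr1:205800073-205800102 on the minus strand and holds an ISRE core, read on the opposite strand of the gene, 60 to 69 bases before the start. The Irf1 stretch lies at chr10:38417783-38417889 on the plus strand and holds a GAS 134 to 142 bases and a κB motif 56 to 65 bases before the start. The Irf9 stretch lies at chr15:33065727-33065755 on the plus strand, with a GAS 91 to 99 bases before the start. The Irf8 stretch lies at chr19:65699094-65699141 on the plus strand, with a GAS 172 to 180 bases and another 153 to 161 bases before the start. The Irf3 stretch lies at chr1:104616569-104616598 on the plus strand, with a κB motif on the opposite strand 20 to 29 bases before the start. No match to these letters was found in the window of Irf5. A match describes the sequence and is not evidence of binding.
Irf7: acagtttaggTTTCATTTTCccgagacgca
Irf1: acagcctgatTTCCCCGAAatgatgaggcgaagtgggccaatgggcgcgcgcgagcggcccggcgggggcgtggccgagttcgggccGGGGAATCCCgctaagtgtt
Irf9: accacgtgatTTCTAGGAActgcacctcc
Irf8: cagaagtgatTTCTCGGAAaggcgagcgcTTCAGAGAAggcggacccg
Irf3: ccattagaaaGGAAAGTCCCaacgctcgga

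At the basal level after siNeg, 4 members stood between 13.84 and 18.59 FPKM in every sample and 3 stood lower. FPKM values, which are per transcript length and can therefore be compared between genes, were 17.8 ± 0.636 (SD, n = 3) for Irf3, 17.4 ± 1.3 for Irf1, 15.5 ± 1.01 for Irf7 and 14.2 ± 0.489 for Irf9. Neighbours in this order did not differ beyond the spread of the samples, since their ranges overlapped, but Irf3 lay above all samples of Irf7 and Irf9, and Irf1 above all samples of Irf9. Irf2 followed at 6.07 ± 0.39 FPKM, Irf5 at 2.81 ± 0.277 FPKM and Irf8 at 0.19 ± 0.0529 FPKM, and these ranges were apart from each other and from those above. The order in siNeg PE was Irf3, Irf7, Irf1, Irf9, Irf2, Irf5 and Irf8, in which Irf3 overlapped with Irf7 and Irf1 overlapped with Irf9.

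After Slc39a2 knockdown the order became strict. In siSlc39a2 it ran Irf7, Irf1, Irf9, Irf3, Irf2, Irf5 and Irf8 in each of the 3 samples, with no overlap between neighbours. In siSlc39a2 PE it was again the same in the 3 samples, but Irf9 now stood above Irf1, at 50.7 ± 1.23 FPKM against 37.8 ± 1.02 FPKM. Irf3, Irf2, Irf5 and Irf8 followed each other in this sequence in all 4 groups.

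**Figure D1:**
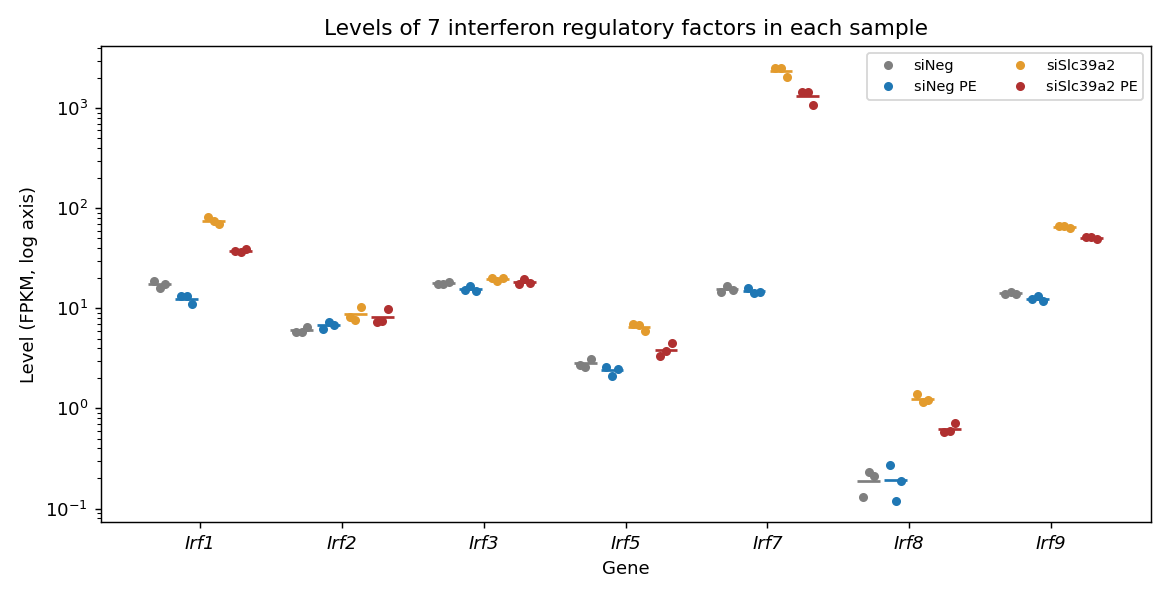
Level of each interferon regulatory factor in the 12 samples, as FPKM on a log axis, with genes along the horizontal axis and groups by colour. Points are samples and bars are the mean of 3 samples. Irf7 moves from 15.5 FPKM in siNeg to 2370 FPKM in siSlc39a2, Irf1, Irf5, Irf8 and Irf9 also stand higher after knockdown, and Irf3 stays between 14.85 and 20.25 FPKM in every sample.

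A single gene came to make up nearly all of the IRF transcripts. The summed level of the 7 members was 73.9 ± 1.09 FPKM in siNeg, 65.0 ± 2.81 FPKM in siNeg PE, 2550 ± 279 FPKM in siSlc39a2 and 1450 ± 214 FPKM in siSlc39a2 PE. Irf7 accounted for 21.0% ± 1.42 of the sum in siNeg and 22.9% ± 1.56 in siNeg PE, but for 93.0% ± 0.639 in siSlc39a2 and 91.6% ± 1.46 in siSlc39a2 PE. The shares of the other 6 members were correspondingly small after knockdown. Irf3, which held 24.0% of the sum in siNeg, held 0.783% in siSlc39a2 at nearly the same absolute level. Without Irf7, the sum of the other 6 was 58.4 ± 1.52 FPKM in siNeg, 50.1 ± 2.92 FPKM in siNeg PE, 177 ± 7.16 FPKM in siSlc39a2 and 120 ± 1.72 FPKM in siSlc39a2 PE.

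**Figure D2:**
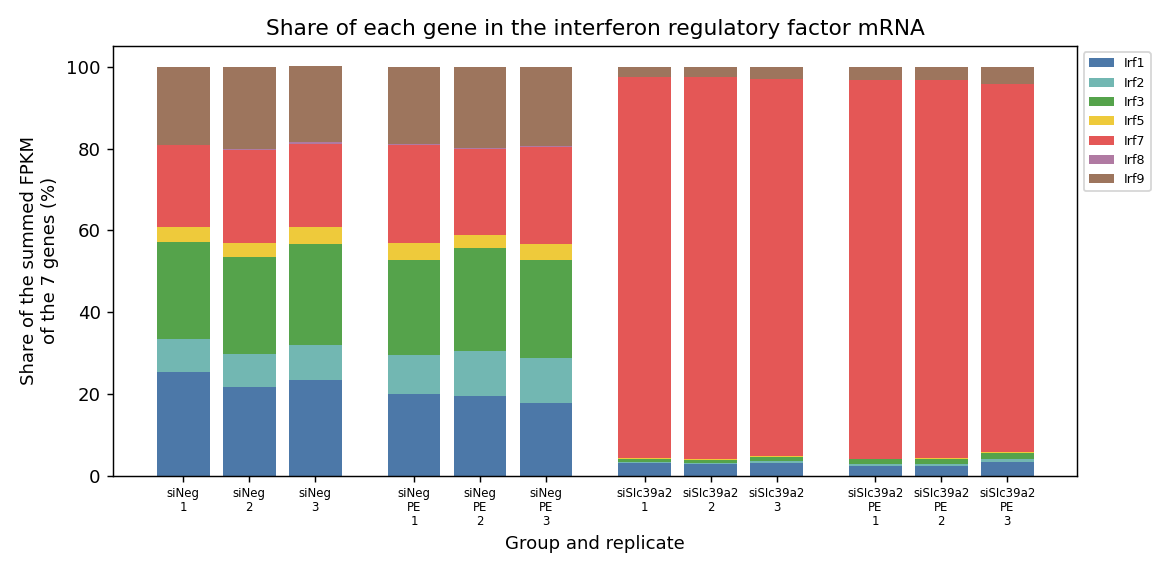
Share of each member in the summed FPKM of the 7 interferon regulatory factors, in percent, as stacked bars for each of the 12 samples ordered by group and replicate. Irf7 takes 21.0% on average in siNeg and 93.0% in siSlc39a2, while Irf1, Irf3 and Irf9 share most of the bar only in the groups given the control siRNA.

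Slc39a2 knockdown was compared first without PE. Of the 7 members, 6 rose at an adjusted p below 0.05 (edgeR quasi-likelihood test, Benjamini-Hochberg over all genes), where 22.8% of all genes tested were called higher, and none fell, where 26.4% of all genes were called lower. A log2 fold change above 1 was passed by 5 of them, Irf1, Irf5, Irf7, Irf8 and Irf9, against 4.57% of all genes. The median log2 fold change of the 7 was 1.97, and that of all genes tested was -0.02. The same comparison in the presence of PE gave 5 members called higher, against 29.2% of all genes, and none lower, against 28.1% of all genes. Past the fold threshold were 4 members, Irf1, Irf7, Irf8 and Irf9, against 6.03% of all genes, with a median over the 7 of 1.58 against 0.01 over all genes.

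PE itself was compared on each background. With the control siRNA, 3 of the 7 members fell, Irf1, Irf3 and Irf9, where 25.7% of all genes were called lower. None rose, where 24.0% of all genes were called higher. After knockdown 5 of 7 fell, Irf1, Irf5, Irf7, Irf8 and Irf9, where 29.3% of all genes were called lower and 30.7% higher, and again no member rose. No member passed a log2 fold change of 1 with PE on either background. The medians over the 7 were -0.28 with the control siRNA and -0.73 after knockdown, against -0.01 and 0.01 over all genes tested. The 4 comparisons share groups with each other, siNeg for example serving as the reference of both the basal knockdown and the PE comparison, so their values are given side by side and were not correlated.

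**Figure D3:**
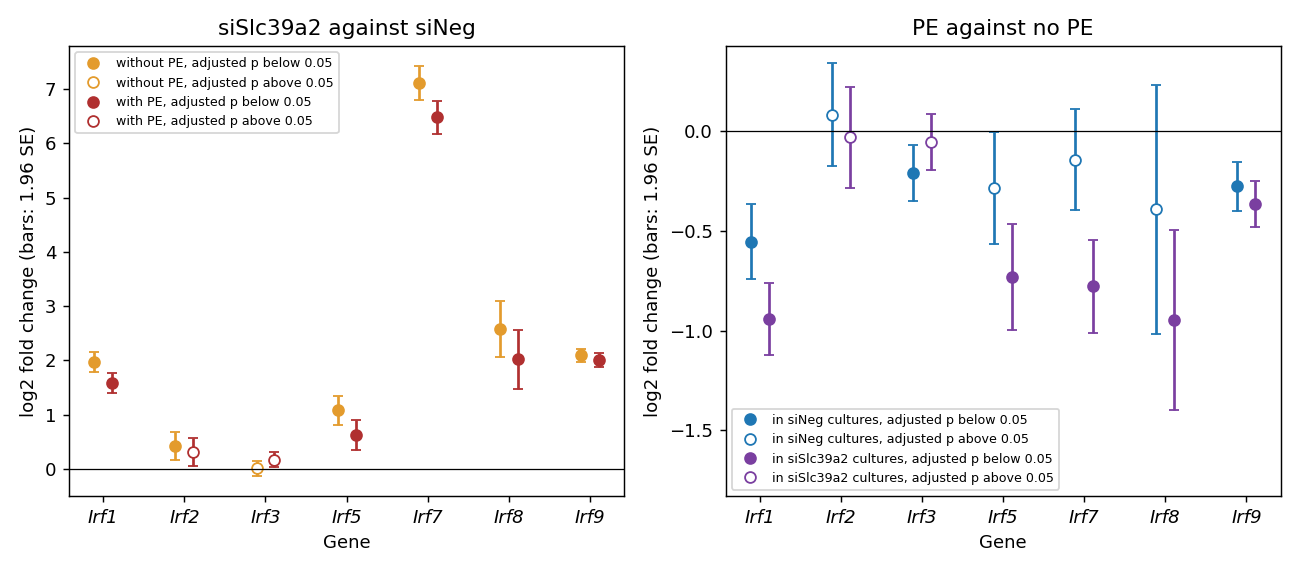
Log2 fold changes of the 7 interferon regulatory factors, with knockdown effects in the left panel and PE effects in the right panel, where bars reach 1.96 SE on either side and filled symbols mark an adjusted p below 0.05. Knockdown effects reach 7.11 for Irf7 and lie near 0 for Irf3, while PE effects after knockdown lie between -0.95 for Irf8 and -0.03 for Irf2.

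Whether PE acted differently on the 2 backgrounds was tested as an interaction. No member passed at an adjusted p below 0.05 with edgeR, where 1.88% of all genes were called lower. At an unadjusted p below 0.05 there were 3 members, Irf1, Irf5 and Irf7, each with a negative estimate, while 16.0% of all genes had such a p. The interaction of Irf7 was -0.63 on the log2 scale (SE 0.175, adjusted p 0.0685 with edgeR), and it ranged from -0.79 to -0.50, with an adjusted p from 0.00923 to 0.168, over 19 alternative analyses. The other tools called 1 member (DESeq2), 2 members (limma on log2(FPKM + 1)) or 1 member (limma on log2(FPKM + 0.1) and on log2(count + 1)). The interaction of Irf1 was -0.39 (SE 0.133, adjusted p 0.155 with edgeR) and that of Irf5 was -0.44 (SE 0.196, adjusted p 0.289 with edgeR). Thus a decrease past the threshold after knockdown and not with the control siRNA, as for Irf5, Irf7 and Irf8 with edgeR, was not shown to differ between the backgrounds in the edgeR test.

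Irf7, the inducible master regulator of type I interferon genes, had the largest change of the 7 and, after knockdown, the highest level. It was measured at 14.7, 16.6 and 15.3 FPKM in siNeg and at 15.8, 14.2 and 14.7 FPKM in siNeg PE. After knockdown it was measured at 2503, 2549 and 2054 FPKM in siSlc39a2 and at 1458, 1455 and 1083 FPKM in siSlc39a2 PE. Both knockdown groups were apart from both control groups and from each other, and replicate 3 was the lowest sample within each of them. The basal knockdown effect was 7.11 on the log2 scale (SE 0.156, adjusted p 1.68e-12), a 138-fold higher level, and the effect with PE was 6.48 (SE 0.152, adjusted p 3.92e-12), an 89.1-fold higher level.

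These changes placed Irf7 among the most abundant transcripts of the cell. Ranked by FPKM among all 18483 genes, Irf7 stood between 4532 and 4810 in siNeg, between 4720 and 5091 in siNeg PE, between 11 and 18 in siSlc39a2 and between 33 and 52 in siSlc39a2 PE. In raw counts it went from 783, 905 and 790 in siNeg to 136428, 142683 and 96737 in siSlc39a2, which was 0.402% to 0.502% of all counts of these samples. By the size of its fold change it ranked number 41 of the 13967 genes tested in the basal comparison and number 39 with PE. PE lowered Irf7 after knockdown by -0.78 on the log2 scale (SE 0.119, adjusted p 0.000153), 1.71-fold. With the control siRNA the PE effect was -0.14 (SE 0.129, adjusted p 0.371), and the interval of 1.96 SE ran from -0.40 to 0.11.

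Irf3, the constitutively expressed factor that shares its activating kinases with Irf7, behaved otherwise. It was measured at 17.4, 17.4 and 18.5 FPKM in siNeg and at 20.2, 18.9 and 20.1 FPKM in siSlc39a2. In the PE groups it was measured at 15.4, 16.9 and 14.8 FPKM after siNeg and at 17.5, 19.8 and 17.7 FPKM after siSlc39a2. The levels in FPKM lay slightly higher in siSlc39a2, but the normalised counts of the basal groups overlapped. The knockdown effect was 0.01 (SE 0.0714, adjusted p 0.879), with an interval of 1.96 SE from -0.12 to 0.15, which holds changes of either sign. With PE it was 0.17 (SE 0.0716, adjusted p 0.0569). PE lowered Irf3 with the control siRNA by -0.21 (SE 0.0717, adjusted p 0.0268), a call that was lost in 6 of the alternatives, among them leaving out siNeg replicates 1 or 3 (adjusted p 0.0658 and 0.0844) and siNeg PE replicates 1 or 3 (adjusted p 0.0523 and 0.112). After knockdown the PE effect on Irf3 was -0.06 (SE 0.0713, adjusted p 0.518).

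Irf5 takes part in signalling downstream of Toll-like receptors and is mainly expressed in myeloid cells. It was measured at 2.74, 2.58 and 3.12 FPKM in siNeg, at 2.62, 2.11 and 2.48 FPKM in siNeg PE, at 6.99, 6.83 and 5.94 FPKM in siSlc39a2 and at 3.31, 3.72 and 4.49 FPKM in siSlc39a2 PE. Its 3 basal knockdown samples were the highest of the 12, and the siSlc39a2 PE samples lay between them and the controls. The knockdown effect was 1.08 (SE 0.138, adjusted p 3.5e-05) without PE and 0.63 (SE 0.141, adjusted p 0.00201) with PE. PE lowered Irf5 after knockdown by -0.73 (SE 0.135, adjusted p 0.000565), whereas with the control siRNA the effect was -0.29 (SE 0.143, adjusted p 0.111 with edgeR). All 3 limma fits called the latter decrease as well, with adjusted p from 0.017 to 0.0337, and all 3 put the basal knockdown effect of Irf5 below the fold threshold, at 0.76 to 0.98.

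Irf9, the DNA-binding subunit of ISGF3, moved with little spread between samples. It was measured at 13.8, 14.7 and 14.0 FPKM in siNeg and at 12.4, 13.3 and 11.9 FPKM in siNeg PE. After knockdown it was measured at 66.8, 65.8 and 64.1 FPKM in siSlc39a2 and at 51.5, 51.4 and 49.3 FPKM in siSlc39a2 PE. The knockdown groups were far above the control groups and were apart from each other. The knockdown effect was 2.10 (SE 0.0627, adjusted p 2.23e-11), 4.27-fold, without PE and 2.01 (SE 0.0629, adjusted p 4.25e-11) with PE. Irf9 fell with PE by -0.28 (SE 0.063, adjusted p 0.00327) with the control siRNA and by -0.36 (SE 0.0592, adjusted p 0.000232) after knockdown. Its interaction was -0.09 (adjusted p 0.697 with edgeR), with an interval of 1.96 SE from -0.26 to 0.08.

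Irf1, an inducible activator of interferon and antigen presentation genes, fell with PE on both backgrounds, as Irf9 did. It was measured at 18.6, 16.0 and 17.6 FPKM in siNeg and at 13.2, 13.2 and 11.0 FPKM in siNeg PE. After knockdown it was measured at 81.6, 75.0 and 69.6 FPKM in siSlc39a2 and at 37.6, 37.0 and 38.97 FPKM in siSlc39a2 PE. None of the 4 groups overlapped. The knockdown effect was 1.97 (SE 0.0955, adjusted p 3.36e-09), 3.92-fold, without PE and 1.58 (SE 0.096, adjusted p 3.47e-08) with PE. PE lowered Irf1 by -0.55 (SE 0.0961, adjusted p 0.000599) with the control siRNA and by -0.94 (SE 0.0919, adjusted p 4.43e-06) after knockdown, 1.92-fold. By FPKM it ranked between 1302 and 1490 in siSlc39a2 and between 2435 and 2558 in siSlc39a2 PE.

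Irf2, which binds the same elements as Irf1 and opposes it at many of them, changed little beside it. It was measured at 5.83, 5.86 and 6.52 FPKM in siNeg, at 6.16, 7.39 and 6.75 FPKM in siNeg PE, at 8.24, 7.73 and 10.3 FPKM in siSlc39a2 and at 7.28, 7.50 and 9.97 FPKM in siSlc39a2 PE. Replicate 3 was the highest sample in both knockdown groups. The basal knockdown effect was 0.42 (SE 0.131, adjusted p 0.0168), which was no longer called without siNeg replicate 1 (adjusted p 0.059) or in any of the 3 limma fits (adjusted p 0.0594 to 0.0862), and with PE it was 0.31 (SE 0.13, adjusted p 0.0555). PE effects were 0.08 (SE 0.132, adjusted p 0.628) with the control siRNA and -0.03 (SE 0.129, adjusted p 0.85) after knockdown, with intervals of 1.96 SE from -0.18 to 0.34 and from -0.28 to 0.22.

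Irf8, which directs the development of macrophages and dendritic cells, was the lowest member and rested on few reads. It had 10, 18 and 15 counts in siNeg, 17, 9 and 9 counts in siNeg PE, 108, 92 and 81 counts in siSlc39a2 and 43, 47 and 54 counts in siSlc39a2 PE. The knockdown groups were apart from the controls and from each other, and the highest level was 1.4 FPKM. The knockdown effect was 2.57 (SE 0.264, adjusted p 5.06e-06), 5.95-fold, without PE and 2.02 (SE 0.28, adjusted p 6.34e-05) with PE. PE lowered Irf8 after knockdown by -0.95 (SE 0.231, adjusted p 0.00354), while with the control siRNA the effect was -0.39 (SE 0.318, adjusted p 0.318), with an interval of 1.96 SE from -1.01 to 0.23.

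Since Irf5 and Irf8 are expressed by myeloid cells, the macrophage markers were set beside them. The summed level of these markers was between 122 and 156 FPKM in siNeg, 51.7 and 68.2 FPKM in siNeg PE, 74.0 and 95.2 FPKM in siSlc39a2 and 37.8 and 47.9 FPKM in siSlc39a2 PE. Of the 17 listed markers 16 were measured, and none of these was at 0 in any group. Lyz2 and Cd74 made up most of the sum in siNeg, at means of 65.7 and 30.8 FPKM. Of 15 markers tested, 8 fell and 1 (Aif1) rose with basal knockdown, against 26.4% and 22.8% of all genes, and 9 fell with PE after knockdown, against 29.3%. Irf8 and the macrophage sum thus moved in opposite directions with basal knockdown and both were lower with PE after it. Spi1, the myeloid factor that partners IRF8 on DNA, fell with PE by -0.996 (SE 0.266, adjusted p 0.00827) with the control siRNA and by -1.03 (SE 0.279, adjusted p 0.00648) after knockdown. The knockdown effects on Spi1 were -0.43 (SE 0.256, adjusted p 0.184) without PE and -0.46 (SE 0.289, adjusted p 0.186) with PE, and neither was called. Fibroblast markers also moved, with 8 of 10 lower after basal knockdown, against 26.4% of all genes. The part of these cells in the changes of the IRFs was not tested.

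**Figure D4:**
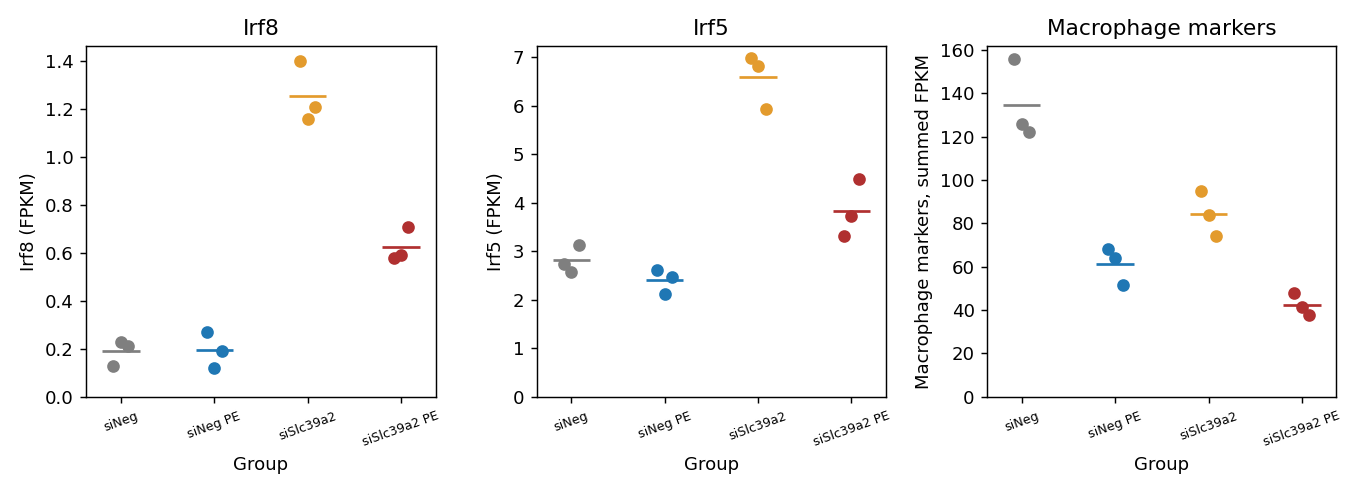
Level of Irf8 (left) and Irf5 (middle) in FPKM, and summed FPKM of the macrophage markers (right). Groups lie along the horizontal axis, with a point for each of the 12 samples and a line for the mean of each group. The siSlc39a2 samples have the highest Irf5 and Irf8 at an intermediate macrophage sum of 74.0 to 95.2 FPKM, and the siNeg samples have the highest macrophage sum, 122 to 156 FPKM, at low Irf5 and Irf8.

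The wider pathway was described by lists of genes, given here by their role and, like the members, chosen with earlier results of these data known. Among 14 adaptors and kinases that activate IRFs, 7 rose and 1 fell with basal knockdown, where 22.8% of all genes were called higher and 26.4% lower, with a median log2 fold change of 0.27 against -0.02 over all genes. The kinase gene Tbk1 rose by 0.94 (SE 0.16, adjusted p 0.000379) and Ikbke, which encodes IKKε, by 0.82 (SE 0.185, adjusted p 0.0028). With PE after knockdown 3 of the 14 rose and 4 fell, which is near the 30.7% and 29.3% of all genes. Tank, which encodes a scaffold of TBK1, rose by 0.95 (SE 0.166, adjusted p 0.000394). Among those that fell were Mavs, the mitochondrial adaptor of RNA sensors, at -0.81 (SE 0.0708, adjusted p 1.71e-06), and Tmem173, which encodes STING, at -0.78 (SE 0.138, adjusted p 0.000445). Mavs fell with PE in control cells too, at -0.68 (SE 0.0703, adjusted p 1.34e-05).

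Of 9 DNA-binding partners and coactivators 7 were tested, and 4 rose and none fell with basal knockdown, against 22.8% and 26.4% of all genes, with a median of 0.36. Stat2, whose product joins IRF9 in ISGF3, was among them at 2.75 (SE 0.07, adjusted p 4.79e-12). With PE after knockdown 4 of the 7 fell and none rose, against 29.3% and 30.7% of all genes, Stat2 by -0.65 (SE 0.0655, adjusted p 5.39e-06). Stat2 was also the 1 partner of the 7 whose PE effect differed between the backgrounds, where 1.88% of all genes were called lower. Its interaction was -0.44 (SE 0.0933, adjusted p 0.0209).

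Among 10 negative regulators of IRFs and interferon signalling, 6 rose and 2 fell with basal knockdown, against 22.8% and 26.4% of all genes, with a median of 0.77. The 2 that fell are near the share of all genes. Usp18, which restrains the interferon receptor, rose by 5.23 (SE 0.0904, adjusted p 2.56e-13), Trim21, a ubiquitin ligase for several IRFs, by 3.70 (SE 0.236, adjusted p 5.19e-08), and Socs1, an inhibitor of JAK kinases, by 3.01 (SE 0.144, adjusted p 2.96e-09). With PE after knockdown 7 of the 10 fell and 2 rose, against 29.3% and 30.7% of all genes, and Socs1 fell by -1.33 (SE 0.129, adjusted p 4.13e-06). The deubiquitinase gene Cyld rose with PE by 1.06 (SE 0.17, adjusted p 0.000347) with the control siRNA and by 1.00 (SE 0.157, adjusted p 0.000178) after knockdown. Each of the 3 corepressors that bind IRF2, Irf2bp1, Irf2bp2 and Irf2bpl, fell with PE after knockdown, by -0.60, -0.21 and -0.30, where 29.3% of all genes were called lower, and none was called with basal knockdown. Irf2bp1 also fell with PE in control cells, by -0.44 (SE 0.0857, adjusted p 0.00133).

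Among interferon ligands, receptors and JAK kinases, 8 of 9 genes were tested, of which 5 rose and none fell with basal knockdown, against 22.8% and 26.4% of all genes, with a median of 0.31. Ifnb1, which encodes interferon beta, had no count in any sample of siNeg and siNeg PE, against 246, 242 and 189 counts in siSlc39a2 and 46, 34 and 39 counts in siSlc39a2 PE. Set against a floor of 3 counts per library, it was at least 68.8-fold higher after knockdown without PE and at least 13.2-fold higher with PE. PE lowered Ifnb1 after knockdown by -2.48 (SE 0.196, adjusted p 1.16e-05). Jak2 rose with basal knockdown by 1.05 (SE 0.177, adjusted p 0.000356).

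The 29 genes listed as targets of IRFs and ISGF3 made up the end of the pathway. With basal knockdown 28 rose and none fell, against 22.8% and 26.4% of all genes, with a median log2 fold change of 5.67 against -0.02 over all genes. Among the highest were Mx1, an antiviral GTPase, at 9.24 (SE 0.182, adjusted p 7.76e-13) and Ifit3, an interferon-induced antiviral protein, at 8.54 (SE 0.197, adjusted p 2.2e-12). The exception was Ciita, the coactivator of MHC class II genes, at 0.07 (SE 0.176, adjusted p 0.762). With PE after knockdown 14 of the 29 fell and 2 rose, against 29.3% and 30.7% of all genes, with a median of -0.27 against 0.01 over all genes. The chemokine Ccl5 fell by -2.01 (SE 0.155, adjusted p 5.76e-07), Ciita by -1.44 (SE 0.19, adjusted p 5.06e-05) and Zbp1, a nucleic acid sensor, by -1.35 (SE 0.166, adjusted p 2.93e-05). In control cells PE gave 6 higher and 4 lower of the 29, shares that do not exceed the 24.0% and 25.7% of all genes, with Mx2 at 1.29 (SE 0.186, adjusted p 0.000167) and Cxcl10 at -0.98 (SE 0.154, adjusted p 3e-04).

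Each member was finally matched to the genes whose pattern over the 12 samples was most like its own, as the root mean square difference of centred log2 CPM (counts scaled to library size). Isg15, an interferon-induced ubiquitin-like modifier, was closest to Irf7 at 0.175, followed by Rtp4 at 0.295, where the median over all candidate genes was 3.41. Closest to Irf1 were Tnfaip3 (0.0964) and Trafd1 (0.123) against a median of 1.02, and closest to Irf9 were Tapbpl (0.11) and Plekha4 (0.116) against a median of 1.07. Irf8 was matched by Parp10 (0.264), whose counts were not whole, and Cxcl11 (0.278) against a median of 1.21. Irf5 was matched by Sgk1 (0.14) and Ppp1r15a (0.152) against a median of 0.616. For Irf2 and Irf3, which hardly moved, genes among the 2 closest were Nr1d2 (0.0798) and Dcaf12 (0.0664), respectively, against medians of 0.373 and 0.321. The 12 points share their libraries and groups, and these distances are descriptions.

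Expected counts of Irf1, Irf2, Irf5, Irf7 and Irf8 were whole numbers in all 12 samples. Those of Irf3 and Irf9 were whole in none, which marks reads divided between genes or transcripts, so their values carry that uncertainty. On GRCr8 Irf3 overlaps Bcl2l12, and Irf2 overlaps 3 other annotated loci. Whether counting used the strand is not given in the sources used here.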

How the data were processed

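RNA-seq was performed on 12 NRVM samples in 4 groups of 3. The authors deposited a matrix of unnormalized expected counts and a second matrix in FPKM, with identical genes. The submitters' processing notes name HISAT, Bowtie2 and the build Rnor_6.0. The counting program is not given in the sources used here, and the study's methods name limma. Samples were grouped by their labels. The deposited expected counts were rounded and tested with edgeR 4.0.16 (R 4.3.3): filterByExpr with a minimum count of 10 kept 13967 genes, TMM normalization was applied, and 1 quasi-likelihood model of the 4 groups with 8 residual degrees of freedom was fitted. P-values were adjusted by Benjamini-Hochberg over all genes tested, and rise or fall means an adjusted p below 0.05. The fold threshold, a log2 fold change beyond 1, follows the study. The SE is the log2 fold change over the square root of F. Levels between genes were compared in the authors' FPKM only. CPM used TMM-scaled totals, and 3 counts corresponded to 0.102 to 0.118 of them. Intervals and floors cover counting error or sample spread only.

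The members and lists were chosen with earlier results of these data known. The 7 members were named in every comparison. From each list up to 3 called genes with the largest change per comparison were eligible for naming, as were the 2 genes of closest pattern per member with a mean log2 CPM above 1. Irf2bp1, Irf2bp2 and Irf2bpl were all named as a list of 3. Ciita in the basal comparison was named after its value was seen. Markers absent from the files by symbol were not analysed here. Alternatives were DESeq2 1.42.0, limma 3.58.1 on log2 values with 3 pseudocount choices, no filter, groups fitted alone, a replicate block and leaving out each sample. The edgeR step was tested on simulated data. Results for some genes are not reported here.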

Additional observations from a re-analysis of the deposited data

How the results depend on the processing

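Of 525 recomputed log2 fold changes of the members, 488 kept their direction and side of the threshold, 17 passed it newly, 10 no longer passed it and 10 changed sign, all of these last in values far from any call. Irf3 with basal knockdown (0.01 in the analysis reported) was -0.0134, -0.0141 and -0.0507 with limma on log2(FPKM + 1), then with a pseudocount of 0.1, then on log2(count + 1), and -0.0214 to 0.0511 on leaving out a sample, the lowest without siNeg replicate 2. Irf2 with PE and the control siRNA was -0.0078, -0.0089 and -0.0068 with the same 3, and with PE after knockdown it was -0.1877 to 0.0597 on leaving out a sample, being 0.0263, 0.0398 and 0.0597 without siSlc39a2 PE replicate 1, siSlc39a2 PE replicate 2 or siSlc39a2 replicate 3. The number of members with an interaction, 0 with edgeR, was 1 with DESeq2, 1 without the filter, 2 with limma on log2(FPKM + 1), 1 with log2(FPKM + 0.1) and 1 with log2(count + 1), and 0 to 1 on leaving out a sample, Irf7 passing without siSlc39a2 PE replicate 1 (adjusted p 0.0474) and without siSlc39a2 replicate 3 (0.0239). The count past the fold threshold with basal knockdown was 3 in place of 5 with limma on log2(FPKM + 1), a pseudocount that brought Irf8 to 0.89, and 4 with the other 2 limma fits, Irf5 falling below the threshold in all 3. The 3 limma fits called 5 members in place of 6 with basal knockdown, without Irf2, and 4 in place of 3 with PE and the control siRNA, with Irf5 added. With PE after knockdown that count was 1 with limma on log2(count + 1) and 0 to 2 on leaving out a sample, being 1 without siSlc39a2 PE replicate 3 and 2 without siSlc39a2 replicate 3, in place of 0. Beyond these, the cause of each difference was not tested. Counts of called members on leaving out a sample were 5 to 6 and 5 to 7 for knockdown without and with PE, 2 to 3 for PE with the control siRNA and 5 to 5 after knockdown. Over all genes, 504 had an interaction with edgeR, against 806 with DESeq2, 805 with limma on log2(FPKM + 1) and 255 to 302 in the 6 leave-one-out fits that moved it most. Calls past the fold threshold with limma on log2(FPKM + 1) were 610, 674, 287 and 583 against 1366, 1621, 922 and 1469 for the 4 comparisons in the order above. Irf8 had at most 18 counts in the control groups.

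Whether the replicate numbers pair the samples was not settled, and the model reported did not use them. Correlations of same-numbered samples between groups ran from -0.0904 to 0.32, and not every one was above 0.1. Mean correlations with differently numbered samples ran from -0.172 to 0.0438. All were correlations of deviations from group means, which sum to 0 over the 3 samples of a group. The mean with other numbers is therefore tied to the same-numbered value with the opposite sign, and is not a separate check of pairing. Among the same-numbered values, replicate 1 of siNeg and siNeg PE had 0.315. Replicate 2 of siSlc39a2 and siSlc39a2 PE had -0.0904. With the replicate block, 1 member, Irf7, had an interaction (adjusted p 0.00923), and over all genes 1053 rather than 504 had one. With knockdown in the presence of PE, 7 rather than 5 members were called, while all genes called higher went from 4072 to 4557. The other comparisons called 6, 3 and 5 members, as without the block. Over all genes, calls in the direction of these members went from 3188 to 3824, from 3584 to 4111 and from 4091 to 4453.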

Other observations

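Among the listed genes, 6 of the 29 targets had an interaction at an adjusted p below 0.05 with edgeR. All 6 had a lower knockdown effect in the presence of PE, where 1.88% of all genes were called lower. Examples were Mx1 at -1.16 (SE 0.265, adjusted p 0.0311) and Oas1a at -0.97 (SE 0.201, adjusted p 0.0189). PE raised the low control level of Mx1 from 1.14 to 2.44 CPM, by 1.09 (SE 0.239, adjusted p 0.00267). After knockdown the PE effect on Mx1 was -0.06 (SE 0.112, adjusted p 0.636). For Oas1a the PE effect was 0.39 (adjusted p 0.0738) with the control siRNA and -0.58 (adjusted p 0.000621) after knockdown. Of the 10 negative regulators, 2 had such a call, against the same 1.88% of all genes. They were Usp18 at -0.52 (SE 0.112, adjusted p 0.0225) and Atf4, the transcription factor of the integrated stress response, at -0.41 (SE 0.0963, adjusted p 0.0344).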
